A study of Mus musculus with 12 samples.

Results

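Histone lactylation writers and erasers are the enzymes reported to attach a lactyl group to lysine or to take it off. The 10 genes described here were chosen by name from both deposited count tables, 4 writers (Ep300, Crebbp, Kat2a and Kat8) and 6 erasers (Hdac1, Hdac2, Hdac3, Sirt1, Sirt2 and Sirt3). All 10 were found among the 26728 gene names that the tables share, and all 10 had enough counts to be tested in every comparison. The rule for choosing them uses their names and no measured value, and the list was drawn up with earlier results of these data known.

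RNA was sequenced from primary mouse vascular smooth muscle cells of the aorta, in 4 groups of 3 libraries. The groups were NR4A3 knockout (KO) cells at day 14, wild type (WT) cells at day 14, KO cells at day 1 and WT cells at day 1. NR4A3 is an orphan nuclear receptor, and the question of the study was how its loss acts on vascular calcification. All groups were grown, per the labels' protocols, in DMEM/F12 with 10% fetal bovine serum and 10 mM beta-glycerophosphate (beta-GP), a phosphate donor used to drive mineral deposition. The treatment label, however, reads beta-GP for KO and none for WT, so the KO and WT groups also differ by whatever that label stands for. The sources used here do not say how the knockout was made, which stretch of Nr4a3 it removes, or whether the 3 libraries of a group come from separate animals or cultures. The p-values therefore rest on differences among these 12 libraries alone, and that scatter may be technical. In bulk RNA, fewer cells of a type and less RNA per cell cannot be told apart.

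Lactate made by glycolysis can be passed on to lysine side chains as a lactyl group, a mark that was first described on histones and that lies at active promoters and enhancers. The acetyltransferases p300 and CBP (Ep300 and Crebbp), GCN5 (Kat2a) and MOF (Kat8), better known for adding acetyl groups, have each been reported to add it. The zinc-dependent deacetylases HDAC1, HDAC2 and HDAC3 and the NAD+-dependent sirtuins SIRT1, SIRT2 and SIRT3 have been reported to remove it, and these roles come mostly from human proteins and cells.

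Library totals ranged from 14369933 to 18797157 counts in KO and from 13848199 to 19519654 in WT at day 14. Totals at day 1 ranged from 17143281 to 20091307 in KO and from 24929624 to 30105118 in WT. Mitochondrial transcripts took 4.61% ± 0.19 of the counts in KO and 3.34% ± 0.08 in WT at day 14 (SD, n = 3). The shares at day 1 were 4.18% ± 0.52 in KO and 4.39% ± 0.13 in WT. Replicates differed by more than sampling noise in every group, and WT day 14 replicate 1 stood farthest from its group (chi-square per gene of 32.5 and 46.1 against the other two), so values without it are given where they change a call. Nr4a3 itself averaged 49.6 ± 13.6 CPM (read counts scaled to a common library size) in KO and 237 ± 19.6 in WT at day 14 (log2 fold change -2.27 ± 0.19 SE, adjusted p = 2.6e-05). At day 1 it averaged 2.08 ± 0.24 CPM in KO and 4.25 ± 0.39 in WT (SD over 3 libraries), which is a log2 fold change of -1.02 ± 0.21 SE with an adjusted p of 0.000855, so reads of the gene remained in the KO libraries at both days. Across 15973 genes, the log2 CPM of the KO day 1 libraries correlated more closely with those of WT day 14 (median Pearson r 0.974 over 9 pairs of libraries) than any other pair of groups did (medians 0.921 to 0.936). The groups nearest to each other thus differed in both genotype and day. Whether day or genotype labels were exchanged in one of the tables was not tested, and an exchange would alter the meaning of the KO effects given here. Nr4a3 was lower in the libraries labelled KO at both days, and the labels are used as they stand. Of the smooth muscle markers, Acta2 averaged 1630 ± 190, 662 ± 108, 668 ± 33.9 and 276 ± 19.3 CPM in KO day 14, WT day 14, KO day 1 and WT day 1. Tagln had only 11, 5, 11 and 2 counts over the 3 libraries of each group in that order, and Myh11 had 8, 31, 27 and 7. The defining contractile markers Tagln and Myh11 were thus near 0 in cells labelled as smooth muscle. Summed over the 10 smooth muscle markers listed, the lowest group, WT day 1, held 2250 to 2270 CPM. Most of that sum came from listed markers other than Acta2, Tagln and Myh11. Why Tagln and Myh11 were so low was not tested.

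The promoter windows of the members that changed with KO at day 14 and have an entry in the RefSeq table (Crebbp, Kat2a, Kat8 and Sirt1) are shown first, since NR4A3 binds DNA. Each runs from 250 bases before the annotated start to 50 after it, on the gene's strand, in GRCm38.p6, which is not the build of the counts (mm9). They lie at chr16:4213355-4213654 on the minus strand for Crebbp, chr11:100712418-100712717 on the minus strand for Kat2a, chr7:127912267-127912566 on the plus strand for Kat8 and chr10:63338986-63339285 on the minus strand for Sirt1. Capitals mark matches on either strand to AGGTCA, the hexamer within the NR4A response element AAAGGTCA (so the longer motif holds the shorter), to the E-box CACGTG and to the ETS core CCGGAA.
Crebbp: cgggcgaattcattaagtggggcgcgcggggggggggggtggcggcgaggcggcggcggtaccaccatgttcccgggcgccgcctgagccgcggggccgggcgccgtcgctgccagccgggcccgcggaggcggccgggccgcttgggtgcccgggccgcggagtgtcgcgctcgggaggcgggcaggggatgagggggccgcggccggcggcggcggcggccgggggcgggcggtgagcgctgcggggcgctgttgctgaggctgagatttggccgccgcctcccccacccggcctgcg
Kat2a: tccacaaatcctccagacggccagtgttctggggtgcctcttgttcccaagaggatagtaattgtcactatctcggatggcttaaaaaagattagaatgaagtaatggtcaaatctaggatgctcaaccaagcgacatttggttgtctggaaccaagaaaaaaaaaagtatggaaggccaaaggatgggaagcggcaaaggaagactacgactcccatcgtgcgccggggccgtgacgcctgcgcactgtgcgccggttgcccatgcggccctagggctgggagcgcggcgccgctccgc
Kat8: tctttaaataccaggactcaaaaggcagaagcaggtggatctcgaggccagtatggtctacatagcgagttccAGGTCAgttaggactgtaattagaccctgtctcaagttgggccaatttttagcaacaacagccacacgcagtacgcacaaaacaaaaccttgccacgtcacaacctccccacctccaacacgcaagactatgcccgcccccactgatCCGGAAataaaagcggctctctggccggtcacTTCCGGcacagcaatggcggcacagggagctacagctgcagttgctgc
Sirt1: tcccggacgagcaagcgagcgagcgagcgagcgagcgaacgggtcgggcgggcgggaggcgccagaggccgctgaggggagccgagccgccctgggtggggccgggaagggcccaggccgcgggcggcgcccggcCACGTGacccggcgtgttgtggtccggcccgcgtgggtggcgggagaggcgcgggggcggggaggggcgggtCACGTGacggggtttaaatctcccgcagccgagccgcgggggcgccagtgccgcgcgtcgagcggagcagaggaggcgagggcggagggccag
Across the 8 of 10 members with entries (10 windows), AAAGGTCA was found in 0 windows, against 1.51% of the 32851 windows in the table. The Kat8 window shown held 1 match to AGGTCA, which 16.3% of all windows hold, and 2 to CCGGAA, which 14.9% hold. Kat8 also has a further window, not shown, which held no match to any of these motifs. The Sirt1 window held 2 matches to CACGTG, which 7.15% of all windows hold. The Crebbp and Kat2a windows held none of these letters, and a match or its absence in a window of 300 bases is a description of sequence only.

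At day 14, KO cells held more Hdac1 and Hdac3, more Crebbp and Kat2a, and less Kat8 and Sirt1 than WT cells, while Ep300, Hdac2, Sirt2 and Sirt3 did not pass the test. Of the 10 members, 4 were higher and 2 lower (edgeR's quasi-likelihood test, adjusted p below 0.05), against 46.4% of 14905 genes called in this comparison, 22.7% higher and 23.7% lower. At day 1, KO cells held less Hdac1, Hdac3, Ep300 and Sirt2 and more Sirt1 and Kat2a. There 2 members were higher and 4 lower, where 60.8% of 15368 genes were called, 30.6% higher and 30.2% lower. CPM of KO and WT did not overlap for 7 members at day 14 (4 higher, 3 lower), against 58.1% of all genes (29.3% higher, 28.8% lower). At day 1 they did not overlap for 6 members (2 higher, 4 lower), against 66.8% (33.3% higher, 33.6% lower). With 6 of 10 members called at each day, these shares lay near those of genes in general. The median size of a member's change (absolute log2 fold change) was 0.42 at day 14 and 0.33 at day 1, against 0.42 and 0.43 over all genes tested. The median log2 fold change of the writers was 0.20 at day 14 and 0.06 at day 1, and that of the erasers -0.12 and -0.25, where all genes had medians of -0.0015 and 0.012.

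**Figure D1:**
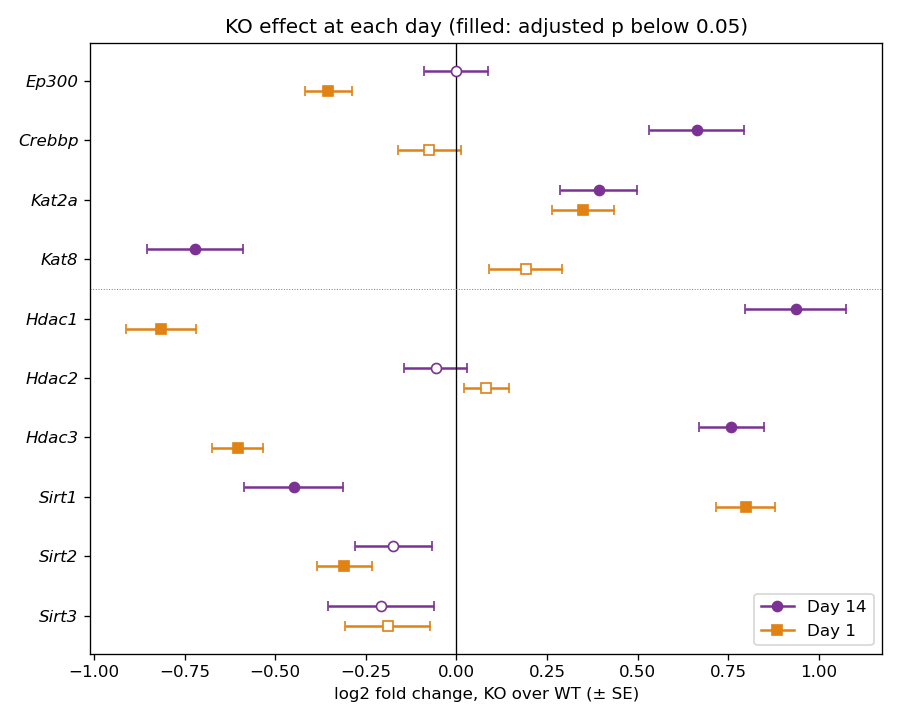
Log2 fold change of KO over WT (x axis, ± SE) for the 4 writers (above the dotted line) and 6 erasers at day 14 (circles) and day 1 (squares), filled where the adjusted p is below 0.05. Hdac1 (0.94 and -0.81), Hdac3 (0.76 and -0.60) and Sirt1 (-0.45 and 0.80) lie on opposite sides of 0 at day 14 and day 1, whereas Kat2a (0.39 and 0.35) lies on the same side.

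**Figure D2:**
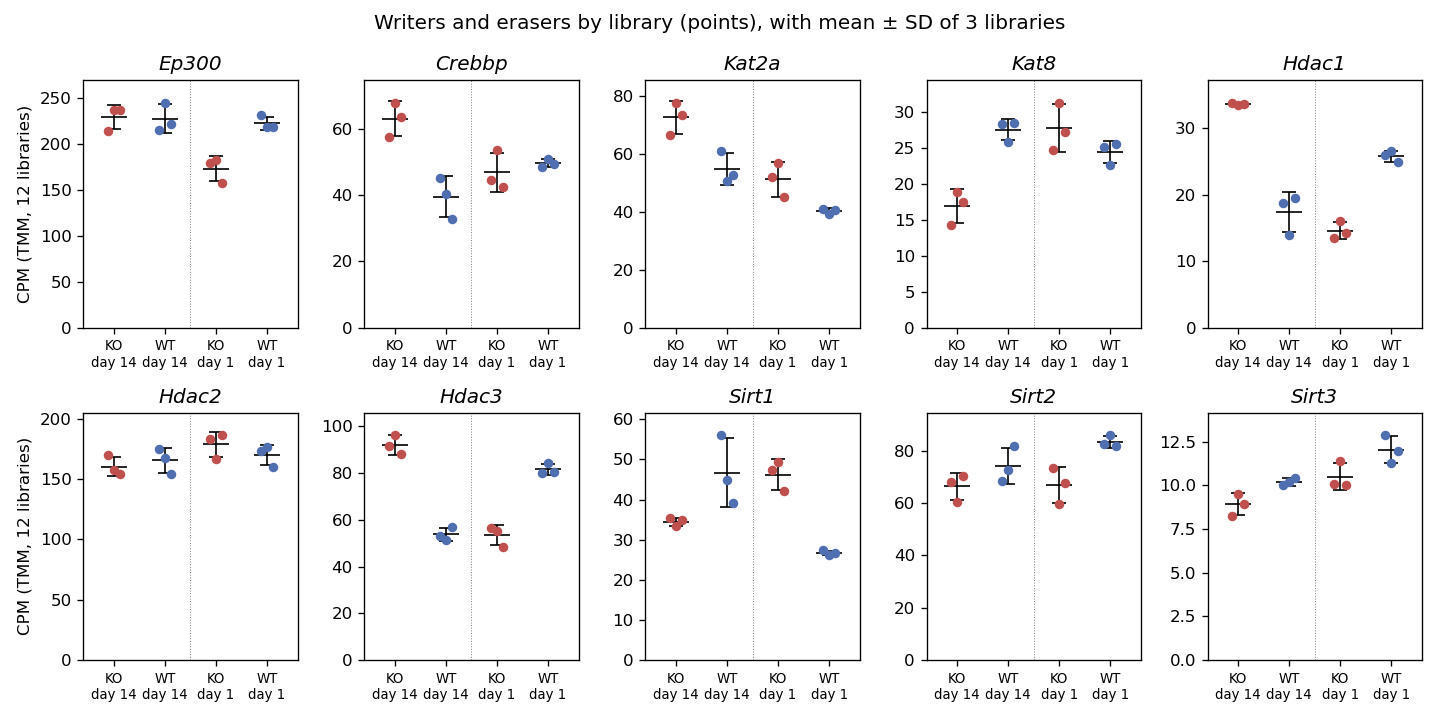
CPM (y axis, from 0, TMM scaling over 12 libraries) of each member in every library (points), with mean ± SD of 3 libraries (lines), KO in red and WT in blue, day 14 left of the dotted line. Hdac1 and Hdac3 are high in KO day 14 and WT day 1 and low in KO day 1 and WT day 14, and the Hdac2 means lie between 160 and 179 CPM.

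Ep300, which encodes p300, the best-known lactyl writer, was lower in KO at day 1 and did not pass the test at day 14. Its libraries at day 1 had 179, 182 and 157 CPM in KO and 231, 218 and 218 CPM in WT, so every KO library lay below every WT library (log2 fold change -0.35 ± 0.06 SE, adjusted p = 0.000386). At day 14 the libraries overlapped, with 213, 236 and 236 CPM in KO and 215, 245 and 222 CPM in WT (log2 fold change 0.00 ± 0.09 SE, adjusted p = 0.989). The KO effect differed between the days (0.37 ± 0.11 SE on the log2 scale, day 14 minus day 1, adjusted p = 0.00973), though with library size alone as scaling this difference was 0.16 with an adjusted p of 0.25. KO day 1 stood below the other 3 groups, whose means of 229, 227 and 222 CPM in KO day 14, WT day 14 and WT day 1 did not differ beyond their spread.

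Crebbp, the paralogue of Ep300, was higher in KO at day 14. Its libraries had 57.5, 67.8 and 63.6 CPM in KO and 45.2, 40.3 and 32.8 CPM in WT, with every KO library above every WT library (log2 fold change 0.66 ± 0.13 SE, adjusted p = 0.00305). At day 1 they overlapped, with 44.4, 53.6 and 42.4 CPM in KO and 48.4, 50.8 and 49.4 CPM in WT, and the difference did not pass the test (-0.08 ± 0.09 SE, adjusted p = 0.471). The sign of that day 1 value depends on 1 choice of scaling, being 0.05 with library size alone, and without KO replicate 2 of day 1 it passed at -0.18 (adjusted p = 0.0262). The change of the KO effect was 0.76 ± 0.17 SE (adjusted p = 0.00108).

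Kat2a, the acetyltransferase GCN5 of the SAGA and ATAC complexes, was the member that rose with KO at both days. It had 66.6, 77.7 and 73.4 CPM in KO and 61.1, 50.5 and 52.6 CPM in WT at day 14. At day 1 it had 51.9, 56.6 and 44.9 CPM in KO and 40.9, 39.4 and 40.7 CPM in WT. All KO libraries lay above all WT libraries of the same day. The log2 fold changes were 0.39 ± 0.11 SE at day 14 (adjusted p = 0.0145) and 0.35 ± 0.09 SE at day 1 (adjusted p = 0.00306). Their difference of 0.06 ± 0.14 SE did not pass the test (adjusted p = 0.728). The day 14 call was lost without KO replicate 2 (adjusted p = 0.079), KO replicate 3 (0.0653) or WT replicate 2 (0.0537).

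Kat8, the acetyltransferase MOF that acetylates lysine 16 of histone H4 in the MSL and NSL complexes, was lower in KO at day 14. Its libraries had 14.2, 18.9 and 17.4 CPM in KO and 28.3, 25.8 and 28.4 CPM in WT, well apart (log2 fold change -0.72 ± 0.13 SE, adjusted p = 0.0022). At day 1 the KO libraries had 24.7, 31.3 and 27.1 CPM and the WT libraries 25.0, 22.7 and 25.5 CPM, which overlapped (0.19 ± 0.10 SE, adjusted p = 0.115). With library size alone that day 1 difference passed the test (0.32, adjusted p = 0.0185). KO day 14 was thus the low group for this writer, and the other 3 group means, 27.7 in KO day 1, 27.5 in WT day 14 and 24.4 CPM in WT day 1, did not differ between neighbours in their order. The KO effect changed by -0.89 ± 0.17 SE between the days (adjusted p = 0.000353).

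Among the erasers, Hdac1 had the widest range of the 10 members, with its highest group mean 2.31-fold above its lowest. HDAC1 and HDAC2 are the paired catalytic subunits of the Sin3, NuRD and CoREST complexes. Hdac1 libraries at day 14 had 33.8, 33.5 and 33.6 CPM in KO and 18.8, 13.96 and 19.5 CPM in WT (log2 fold change 0.94 ± 0.14 SE, adjusted p = 0.000681). At day 1 they had 13.5, 16.1 and 14.2 CPM in KO and 26.0, 26.5 and 24.8 CPM in WT (-0.81 ± 0.10 SE, adjusted p = 9.78e-06). The groups did not overlap at either day, and KO was the higher one at day 14 and the lower one at day 1, a change of 1.77 ± 0.17 SE (adjusted p = 3.77e-07). Hdac1 counts carry an uncertainty of sequence, as 1167 of its 1989 stretches of 50 bases (58.7%) also occur in other annotated transcripts, mainly the copy Gm10093. The copy itself was listed at 22.7 ± 1.91 CPM in KO and 10.5 ± 3.58 in WT at day 14. It was at 11.6 ± 2.80 CPM in KO and 18.2 ± 1.36 in WT at day 1, so that KO was the higher at day 14 and the lower at day 1, as for Hdac1. Summed with the copies Gm10093 and Gm4864, a choice made after seeing the data, Hdac1 changed by 0.99 ± 0.15 SE at day 14 (adjusted p = 0.000736) and -0.76 ± 0.08 SE at day 1 (adjusted p = 3.5e-06).

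Hdac2, the close paralogue of Hdac1, passed no test of KO against WT. It had 170, 157 and 154 CPM in KO and 175, 168 and 154 CPM in WT at day 14 (-0.06 ± 0.09 SE, adjusted p = 0.62). At day 1 it had 183, 167 and 186 CPM in KO and 173, 177 and 160 CPM in WT (0.08 ± 0.06 SE, adjusted p = 0.273). All 4 groups overlapped with their neighbours, and the highest group mean was 1.12-fold the lowest. The day 1 difference passed the test with library size alone (0.21, adjusted p = 0.00982) and without KO replicate 2 (0.13, adjusted p = 0.0366).

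Hdac3, a catalytic subunit of nuclear receptor corepressor complexes, followed the order of Hdac1. It had 91.5, 96.3 and 88.0 CPM in KO and 52.9, 51.6 and 57.1 CPM in WT at day 14 (0.76 ± 0.09 SE, adjusted p = 0.000176). At day 1 it had 56.6, 55.3 and 48.6 CPM in KO and 79.9, 84.3 and 80.6 CPM in WT (-0.60 ± 0.07 SE, adjusted p = 8.61e-06). All KO libraries lay above all WT libraries at day 14 and below them at day 1, and the change of the KO effect was 1.38 ± 0.11 SE (adjusted p = 6.1e-08). KO day 14 and WT day 1, next to each other at the top, did not differ by the test (0.17, adjusted p = 0.0836). Their libraries did not overlap, however, with those of KO day 14 the higher. With library size alone as scaling, their difference passed the test (0.22, adjusted p = 0.0316). KO day 1 and WT day 14 at the bottom did not differ by the test (-0.01, adjusted p = 0.945). The Hdac3 counts share no stretch of 50 bases with another transcript and no exon with another gene.

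Sirt1, a nuclear NAD+-dependent deacylase, ran the other way from Hdac1 and Hdac3. It had 35.3, 33.3 and 34.8 CPM in KO and 56.1, 44.8 and 39.2 CPM in WT at day 14 (-0.45 ± 0.14 SE, adjusted p = 0.0238). At day 1 it had 47.4, 49.3 and 42.0 CPM in KO and 27.4, 26.3 and 26.6 CPM in WT (0.80 ± 0.08 SE, adjusted p = 2.25e-06). The groups did not overlap at either day, with WT day 14 replicate 1 the highest of the 12 libraries, and the KO effect changed by -1.23 ± 0.16 SE (adjusted p = 1.13e-05). The day 14 call was lost when any of the KO replicates was left out, with adjusted p of 0.072, 0.0842 and 0.0704 without replicates 1, 2 and 3.

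Sirt2 and Sirt3 varied less. Sirt2, a mainly cytoplasmic deacylase, had 73.5, 59.7 and 67.6 CPM in KO and 82.4, 86.0 and 81.7 CPM in WT at day 1, every KO library below every WT library (-0.31 ± 0.08 SE, adjusted p = 0.00312). At day 14 it had 68.1, 60.4 and 70.5 CPM in KO and 68.3, 72.6 and 81.8 CPM in WT, which overlapped (-0.17 ± 0.11 SE, adjusted p = 0.209). Without WT day 14 replicate 1 the difference passed the test (-0.25 ± 0.09 SE, adjusted p = 0.0183). The change of the Sirt2 KO effect did not pass (0.16 ± 0.13 SE, adjusted p = 0.331). Sirt3, the mitochondrial sirtuin, was the least counted member, with 135 counts in 1 KO library of day 14. It had 8.27, 9.53 and 8.95 CPM in KO and 10.0, 10.2 and 10.4 CPM in WT at day 14 (-0.21 ± 0.15 SE, adjusted p = 0.27). At day 1 it had 10.1, 11.4 and 10.0 CPM in KO and 12.9, 11.3 and 11.98 CPM in WT (-0.19 ± 0.12 SE, adjusted p = 0.177). The day 14 groups did not overlap although the test was not passed, and the day 1 groups did. Of the Sirt3 exon bases, 32.8% overlap Psmd13 and Ric8a on the opposite strand, whose reads cannot be told apart without strand. Psmd13 had log2 fold changes of 0.23 at day 14 (adjusted p = 0.0778) and 0.19 at day 1 (adjusted p = 0.0223). Ric8a had log2 fold changes of 0.08 at day 14 (adjusted p = 0.624) and -0.62 at day 1 (adjusted p = 5.84e-06).

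Within a genotype, day 14 was compared with day 1, and the members whose KO effect differed between the days (Ep300, Crebbp, Kat8, Hdac1, Hdac3 and Sirt1) are those whose day difference differed between KO and WT. Day and count table cannot be told apart in these values. In KO, 5 members were higher at day 14 than at day 1 and 2 lower, against 54.8% of genes called (26.9% higher, 27.9% lower). In WT, 2 were higher and 3 lower, against 51.9% called (25.8% higher, 26.1% lower). Hdac1 and Hdac3 were higher at day 14 in KO, by 1.21 ± 0.12 and 0.78 ± 0.08 SE. In WT both were lower at day 14, with log2 fold changes of -0.56 ± 0.12 and -0.60 ± 0.08 SE. Crebbp was likewise higher at day 14 in KO (0.43 ± 0.12 SE) and lower in WT (-0.33 ± 0.12 SE). Its WT call was lost without WT day 1 replicate 1, 2 or 3 (adjusted p = 0.0517, 0.0791 and 0.064), without WT day 14 replicate 2 or 3 (0.0549 and 0.167) and with library size alone (0.188). Sirt1 was lower at day 14 in KO (-0.42 ± 0.12 SE) and higher in WT (0.81 ± 0.12 SE). Kat2a was higher at day 14 in both, by 0.51 ± 0.10 SE in KO and 0.44 ± 0.10 SE in WT. Ep300 (0.41 ± 0.08 SE) and Kat8 (-0.72 ± 0.12 SE) changed with day in KO, while in WT their differences of 0.03 and 0.17 did not pass the test (adjusted p = 0.762 and 0.237). With library size alone, Kat8 passed in WT (0.31, adjusted p = 0.0487), as did Hdac2 (-0.24, adjusted p = 0.014) and Sirt3 (-0.32, adjusted p = 0.0492) in KO. Hdac2 in KO also passed without KO day 1 replicate 2 (-0.22, adjusted p = 0.0375).

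The groups that differ in both genotype and day were also compared, since KO day 1 and WT day 14 were the nearest pair over all genes. Ep300 was the only member to pass the test between KO day 1 and WT day 14 (-0.40 ± 0.08 SE, adjusted p = 0.00765), 0 members higher and 1 lower, against 9.78% of genes called (3.89% higher, 5.89% lower). That background rests on 1562 genes called and on single libraries, with 576 to 5538 genes called when each library was left out in turn, the fewest without KO day 1 replicate 3 and the most without WT day 14 replicate 1. The median size of a member's difference was 0.11, against 0.22 over all genes. Without WT day 14 replicate 1, Crebbp passed as well (0.37, adjusted p = 0.0129). Between KO day 14 and WT day 1, 4 members were higher and 3 lower, against 50.7% of genes called (24.6% higher, 26.1% lower), led by Kat2a (0.85 ± 0.10 SE, adjusted p = 6.51e-06). Hdac1, Crebbp and Sirt1 were higher by 0.39, 0.35 and 0.37, while Kat8, Sirt3 and Sirt2 had log2 fold changes of -0.54, -0.43 and -0.33. These calls were lost for Crebbp without KO day 14 replicate 2 or 3 (adjusted p = 0.0854 and 0.0559) or WT day 1 replicate 1 or 3 (0.0717 and 0.0607). They were also lost for Hdac1 without WT day 1 replicate 3 (adjusted p = 0.053), for Sirt1 without WT day 1 replicate 2 (0.0535) and for Sirt2 without KO day 14 replicate 2 (0.0639).

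Of the members, 4 were called for KO against WT at both days, and Hdac1, Hdac3 and Sirt1 turned direction while Kat2a did not. Of all genes called at both days, 82.1% had opposite directions (3883 of 4732), so the turn of these erasers is shared with most such genes. The KO effect differed between the days for 6 members, 4 upward and 2 downward, against 60.1% of 15973 genes (29.5% upward, 30.5% downward). Summed over the role, writer transcripts had 381 ± 25.9 CPM in KO and 349 ± 12.9 in WT at day 14 (SD, n = 3). Writers had 298 ± 26.2 CPM in KO and 336 ± 7.56 in WT at day 1. Eraser transcripts had 396 ± 9.54 CPM in KO and 368 ± 11.2 in WT at day 14, and 370 ± 12.8 in KO and 399 ± 12.6 in WT at day 1. Ep300 and Hdac2 weigh most in these sums.

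Levels between genes were set side by side only per kilobase of exon, with lengths from an annotation of another build (GENCODE M21). On that scale Hdac2 (37.8 to 42.3 CPM per kb, lowest to highest group mean), Hdac3 (26.3 to 45.2) and Sirt2 (29.4 to 37.0) were the highest erasers. Hdac1 (7.16 to 16.5), Sirt1 (6.03 to 10.5) and Sirt3 (5.17 to 6.96) were lower, with Hdac1 below Sirt1 in KO day 1 and WT day 14. Reads listed under the Hdac1 copy Gm10093 (11.6 and 10.5 CPM in those groups) are left out, so this order against Sirt1 is uncertain. Among the writers, Ep300 ranged from 18.1 to 23.9, Kat2a from 13.2 to 23.8, Kat8 from 10.6 to 17.5 and Crebbp from 3.64 to 5.82 CPM per kb. Ep300 therefore stood above its paralogue Crebbp in every group.

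The genes whose log2 CPM was most like a member's over the 12 libraries were taken from 9506 tested genes, as a description, since the libraries fall into 4 groups and most genes follow them. The closest to Hdac1 were Egln1 (Pearson r = 0.987), an oxygen-sensing prolyl hydroxylase, and Il10rb (0.983), and to Hdac3 Cap1 (0.988) and Col5a3 (0.986). Sirt1 was closest to Brms1 (0.986) and Wdr18 (0.984), and Kat2a to Stat5b (0.986) and Dpp9 (0.982). The closest genes to the flatter members were less alike, such as Zfp51 (0.904) and Txndc17 (0.895) for Hdac2 and Srgap2 (0.920) and Krt19 (0.913) for Sirt3. Ep300 (Prpf8 0.951, Sfpq 0.929), Crebbp (Rapgef6 0.958, Slc39a9 0.956), Kat8 (Pxn 0.961, Vps72 0.955) and Sirt2 (Lrig2 0.932, Higd2a 0.910) lay between.

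Genes that work beside the writers were read from lists of names, and the changes named from here on passed at an adjusted p below 0.05 unless a p is given. Counts in these lists and in the marker lists stand beside the shares over all genes tested. In KO against WT those were 22.7% higher and 23.7% lower at day 14, and 30.6% and 30.2% at day 1. Of all genes called at both days, 82.1% changed direction. Of 10 other acetyltransferases, 4 were higher and 0 lower in KO at day 14, led by Hat1 (0.87 ± 0.18 SE) and Kat2b (0.62 ± 0.09 SE), the paralogue of Kat2a. At day 1, 2 were higher (Ncoa1 0.48, Hat1 0.24) and 4 lower, with Ncoa3 (-0.50) and Kat6b (-0.30) the lowest. Of 11 SAGA and ATAC partners of KAT2A, 2 were higher (Yeats2 0.71, Taf5l 0.45) and 3 lower (Supt20 -0.59 and Trrap -0.56 among them) at day 14. At day 1 Tada2b (0.46) and Supt3 (-0.52) changed. Of 11 partners of KAT8, Kansl2 (0.32) was higher and Mcrs1 (-0.34) lower at day 14. At day 1 there were 3 higher (Wdr5 0.44, Msl1 0.26 among them) and 3 lower (Ogt -0.59, Hcfc1 -0.30 among them). The partners of these writers thus changed in both directions.

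Among genes linked to the lactyl donor and the alanyl-tRNA synthetases, which have also been reported to attach lactate, Sucla2 (0.53 ± 0.08 SE) and Suclg1 (0.53 ± 0.13 SE), subunits of succinyl-CoA synthetase, were higher in KO at day 14, making 2 of 6 higher and 0 lower. At day 1, 0 were higher and 3 lower, among them Sucla2 (-0.30 ± 0.06 SE), which thus changed direction. Acss2, a nuclear and cytoplasmic acyl-CoA synthetase reported to make lactyl-CoA, averaged 8.50 ± 0.57 CPM in KO and 46.8 ± 2.30 in WT at day 1 (-2.45 ± 0.09 SE, adjusted p = 2.15e-10). At day 14 it averaged 19.3 ± 2.12 CPM in KO and 13.3 ± 7.67 in WT. The WT libraries ran from 5.70 to 21.0 CPM, and the difference did not pass the test (adjusted p = 0.287).

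Of 8 other histone deacetylases, Hdac10 was the only one called at day 14 (0.45 ± 0.11 SE, 1 higher and 0 lower), against 3 higher and 4 lower at day 1. At day 1, Hdac9, a class IIa deacetylase of muscle, averaged 19.9 ± 1.51 CPM in KO and 5.60 ± 0.38 in WT (1.84 ± 0.12 SE), and Hdac10 was 0.57 higher. Hdac5, also of class IIa, averaged 56.6 ± 2.70 CPM in KO and 131 ± 7.59 in WT (-1.20 ± 0.07 SE). Hdac6, the tubulin deacetylase, was also lower (-0.91 ± 0.08 SE). Of 4 other sirtuins, Sirt7 was higher at day 14 (0.55 ± 0.12 SE), and Sirt6 (-0.74 ± 0.10 SE) and Sirt7 (-0.43 ± 0.08 SE) were lower at day 1. The sirtuin Sirt7 thus changed direction as Hdac1 and Hdac3 did.

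Of 16 partners of HDAC1 and HDAC2, 3 were higher and 6 lower in KO at day 14, and 5 higher and 8 lower at day 1. Sap18 averaged 24 ± 0.94 CPM in KO and 13.2 ± 1.66 in WT at day 14 (0.86 ± 0.13 SE). It averaged 12.5 ± 2.08 in KO and 19.1 ± 2.37 in WT at day 1 (-0.59 ± 0.14 SE), the order of Hdac1. Sap30, another Sin3 subunit, ran the other way (-0.62 ± 0.13 SE at day 14, 0.54 ± 0.11 SE at day 1). Sin3a (0.47) and Suds3 (-0.49) also changed at day 14, and Mbd3 (0.77) and Mta3 (-0.64), both of NuRD, at day 1. Of 5 partners of HDAC3, 3 were higher and 1 lower at day 14 (Gps2 0.29 and Tbl1x 0.28 among the higher). At day 1, 1 was higher and 3 lower (Tbl1xr1 -0.91 and Tbl1x -0.57 among the lower). Tbl1x therefore moved as Hdac3 did at both days.

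Of 9 readers of acylated lysine, Smarca4 (0.35) was higher and Dpf2 (-0.35) lower at day 14. At day 1, 3 were higher (Brd2 0.45, Mllt1 0.38 among them) and 4 lower (Brd3 -0.51, Mllt3 -0.32 among them). Of 15 genes of lactate supply and transport, 5 were higher and 4 lower at day 14, and 4 higher and 8 lower at day 1. Ldha, the lactate dehydrogenase subunit that favours lactate, averaged 1400 ± 116 CPM in KO and 596 ± 81.0 in WT at day 14 (1.22 ± 0.12 SE). At day 1 Ldha was lower in KO (-1.39 ± 0.11 SE). Pdk1, a pyruvate dehydrogenase kinase, averaged 155 ± 21.6 CPM in KO and 57.9 ± 19.7 in WT at day 14 (1.41 ± 0.24 SE). It averaged 29.8 ± 1.05 in KO and 146 ± 2.83 in WT at day 1 (-2.28 ± 0.06 SE). Pdk4 (-1.33) and Hagh (-0.54) were lower at day 14, and at day 1 Pkm (-1.53) was lower and Mpc2 (1.33) and Ldhb (0.99) higher.

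Of 10 genes that make or use NAD+, the cosubstrate of the sirtuins, 6 were higher and 2 lower in KO at day 14, and 2 higher and 4 lower at day 1. Nnmt, which takes up nicotinamide by methylation, averaged 27.8 ± 0.69 CPM in KO and 2.55 ± 1.32 in WT at day 14 (3.47 ± 0.31 SE). It averaged 1.87 ± 0.74 in KO and 7.13 ± 1.06 in WT at day 1 (-1.92 ± 0.25 SE). Nmnat2 changed by 1.00 and -1.47, and Nmnat3 by -4.17 and 1.67, at day 14 and day 1. Cd38, an NAD+ hydrolase, had 2 counts in the 3 KO libraries and 161 in the 3 WT libraries at day 14, and was higher in KO at day 1 (1.51 ± 0.31 SE). Nnmt was thus highest in KO day 14, and Nmnat3 and Cd38 were lowest there. The list medians of the log2 fold change at day 14 and day 1 were 0.38 and -0.08 for other acetyltransferases, 0.36 and -0.16 for the lactyl donor list, 0.26 and -0.53 for partners of HDAC3, and 0.49 and -0.16 for the NAD+ list. The other 7 lists had medians between -0.04 and 0.14 at day 14 and between -0.17 and 0.01 at day 1.

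**Figure D3:**
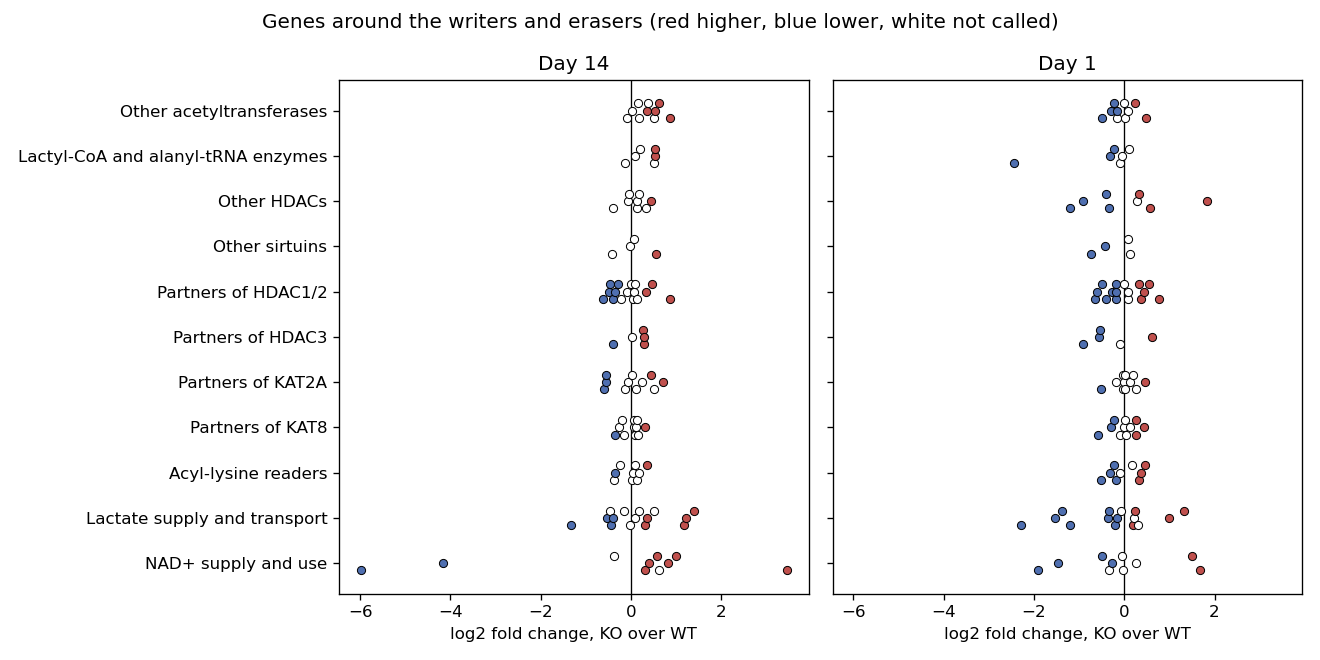
Log2 fold change of KO over WT (x axis) for each tested gene of 11 lists of names, at day 14 (left) and day 1 (right), red where higher, blue where lower and white where not called. Other acetyltransferases have 4 red and 0 blue points at day 14, and 2 red and 4 blue at day 1, and the points farthest from 0 at day 14 are in the NAD+ list.

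Markers of cell types also differed between the groups, and the order of the groups was not the same in every list. Summed smooth muscle marker CPM ran from 3800 to 4300 in KO and from 2500 to 3360 in WT at day 14. The day 1 libraries ran from 2610 to 2740 in KO and from 2250 to 2270 in WT. Fibroblast markers ran from 692 to 773 in KO and from 510 to 699 in WT at day 14. At day 1 they ran from 246 to 368 in KO and from 579 to 588 in WT, so that KO was the lower, as for Hdac1. Their ranges in KO and WT overlapped at day 14, and so did those of WT between the days. Neither was so for Hdac1. Macrophage markers ran from 31.8 to 35.7 in KO and from 43.5 to 72.4 in WT at day 14. At day 1 they ran from 44.3 to 57.3 in KO and from 19.7 to 26.0 in WT, low in WT day 1, as for Sirt1. Mesothelial markers ran from 78.6 to 82.5 in KO and from 278 to 418 in WT at day 14, and from 359 to 366 in KO and from 402 to 409 in WT at day 1. Endothelial markers summed to between 7 and 8.26 in KO and between 7.85 and 10.2 in WT at day 14, and to 4.62 to 6.49 in KO and 13.6 to 16.1 in WT at day 1. Schwann cell markers summed to 0.917 to 2.07 in KO and 2.08 to 2.93 in WT at day 14, and 2.39 to 3.66 in KO and 1.20 to 1.97 in WT at day 1. Of the tested markers at day 14, 3 of 7 smooth muscle, 4 of 7 fibroblast, 0 of 3 endothelial, 1 of 3 macrophage, 0 of 1 Schwann cell and 0 of 4 mesothelial genes were higher in KO, and 2, 2, 2, 1, 0 and 4 in that order were lower. At day 1, 4 of 7 smooth muscle, 1 of 8 fibroblast, 1 of 2 endothelial, 2 of 2 macrophage, 1 of 1 Schwann cell and 1 of 4 mesothelial genes were higher, and 2, 7, 1, 0, 0 and 2 lower. Of the markers of blood and vessel lining cells, Ptprc and Pecam1 were near 0. In KO day 14, WT day 14, KO day 1 and WT day 1, Ptprc had 1, 2, 26 and 0 counts. Pecam1 had 28, 25, 4 and 17 in that order. Other markers of these cells had enough counts to be tested. At day 1, Cdh5 was lower in KO (-1.92 ± 0.14 SE). Vwf (1.22 ± 0.45 SE), Cd68 (1.15 ± 0.12 SE) and Lyz2 (1.56 ± 0.45 SE) were higher. Of the markers listed, Emcn was not analysed here. Myocd had 0 counts in WT day 1, Adgre1 in WT day 14, Tyrobp in KO day 14 and WT day 14, Sox10 and Dpt in KO day 1, Lum in KO day 14, and Upk3b in KO day 14, WT day 14 and KO day 1. The part of these markers in the members' changes was not tested.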

How the data were processed

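The authors deposited unnormalised read counts by gene name for 12 libraries in 4 groups of 3, with a separate table for each day. The build is mm9, per the submitters' processing notes, and the sources used here do not give the aligner, counter, annotation or use of strand. Repeated lines were removed (43 at day 1 and 53 at day 14), which left 28451 and 30813 names, and columns named CTR were read as WT. Counts were tested with edgeR 4.0.16 in R 4.3.3 (TMM, filterByExpr, quasi-likelihood test, p-values adjusted after Benjamini and Hochberg over all genes tested, called at 0.05). KO was compared with WT in a fit of each day's 6 libraries, and the other comparisons came from 1 fit of 12 libraries. CPM values use the scaling of the 12 libraries. The shares of all genes whose groups did not overlap are an exception and use the scaling of each day's 6 libraries. A standard error is the log2 fold change divided by the root of the F statistic. Named genes are all members, Nr4a3, the 2 largest rises and 2 largest falls called in each list, and the 2 genes most alike to each member (prior count 2, mean log2 CPM at least 3). Of the genes that this rule takes, 1 is not reported here, though it stays in the tests and counts. Members and lists were chosen with earlier results of these data known. Promoters are RefSeq sequences, and lengths and overlaps come from GENCODE M21. Alternatives included DESeq2 1.42.0, limma 3.58.1 (voom), other scalings and filters, and each library left out. The fits were tested on simulated data, in which far fewer genes changed than were called here. They recovered 24.2% of 1.5-fold changes at day 14, 68.7% at day 1 and 17.9% in the interaction. False calls made up 3.15%, 7.26% and 4.17% of all calls, in that order. A member that did not pass may thus still differ.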

Additional observations from a re-analysis of the deposited data

Results flagged for a closer look

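The KO effect differed between day 14 and day 1, by the interaction test of edgeR's quasi-likelihood fit of 12 libraries, for 6 of the 10 members. The differences (day 14 minus day 1, log2 scale) were 0.37 for Ep300 (adjusted p = 0.00973), 0.76 for Crebbp (0.00108), 1.77 for Hdac1 (3.77e-07) and 1.38 for Hdac3 (6.1e-08), and -0.89 for Kat8 (0.000353) and -1.23 for Sirt1 (1.13e-05). In this test 60.1% of all genes were called.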

How the results depend on the processing

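Hdac1 and Hdac3 kept their call and direction at day 14 (0.80 to 1.02 and 0.69 to 0.80), at day 1 (-0.88 to -0.69 and -0.65 to -0.48) and in the interaction under every alternative run, and Crebbp and Kat8 kept theirs at day 14. Of the alternatives for single members, 988 kept direction and side of the threshold, 20 lost the call, 12 gained one and 40 changed sign, none of those a called value. Library size alone shifted the median of all genes by 0.12 at day 1, -0.18 in the interaction and 0.11 for day 14 against day 1 in WT. With it, the members called higher in KO against WT at day 1 numbered 4, those called lower at day 14 against day 1 in KO numbered 4, and the interaction became 0.16 for Ep300 (adjusted p = 0.25) and -0.33 for Hdac2 (adjusted p = 0.013). Signs also changed with it for Crebbp in KO against WT at day 1 (0.049), Hdac2 in WT over the days (0.094), and the interaction values of Kat2a (-0.15), Sirt2 (-0.055) and Sirt3 (-0.208). For the change of Sirt3, size factors of the DESeq2 kind gave -0.009, a filter of 1 CPM -0.048, DESeq2 -0.01 and voom -0.004. Ep300 at day 14 was 0.007 without a filter and 0.01 with 12 libraries in the fit. Between KO day 1 and WT day 14, Kat8 was -0.004 with size factors of the DESeq2 kind, -0.004 with DESeq2 and -0.001 with voom, and Hdac3 was 0.002 without a filter. The cause was not tested.

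With each library left out in turn, members lower in KO at day 14 numbered 1 to 3, members higher in KO day 14 than in WT day 1 numbered 2 to 4, and members higher in KO day 1 than in WT day 14 numbered 0 to 1. Genes called between KO day 1 and WT day 14 numbered 576 to 5538, the most without WT day 14 replicate 1, against 1562 with all libraries. Sign changes gave ranges of -0.068 to 0.055 (Sirt3) and -0.034 to 0.122 (Kat2a) in the interaction, -0.059 to 0.054 for Ep300 in KO against WT at day 14, -0.006 to 0.084 (Ep300) and -0.083 to 0.027 (Hdac2) over the days in WT, and -0.099 to 0.068 for Sirt2 over the days in KO. Between KO day 1 and WT day 14 the ranges were -0.081 to 0.078 (Kat8), -0.06 to 0.048 (Hdac3), -0.127 to 0.146 (Sirt1) and -0.02 to 0.064 (Sirt3). Without WT day 14 replicate 1, the library least like its group, 9209 genes and 4 members higher and 3 lower were called in KO against WT at day 14.

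The replicate numbers did not visibly pair KO with WT libraries. Equal numbers had correlations of deviations of -0.022 to -0.008 at day 1 and -0.014 to 0.018 at day 14. Between the days in WT, equal numbers gave 0.024 to 0.044 and unequal numbers -0.045 to 0.011. In KO they gave -0.038 to 0.043 and -0.075 to 0.077. With the replicate number as a block, 6716 genes were called in KO against WT at day 14 and 9090 at day 1, with the members called unchanged in number (4 higher and 2 lower at day 14, 2 and 4 at day 1). The block gave 9524 genes in the interaction, 8220 and 8705 over the days in WT and KO, 1492 between KO day 1 and WT day 14 and 8024 between KO day 14 and WT day 1. Sirt3, at 135 to 319 counts per library, is the member that depth limits most.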
